A study of Gallus gallus with 28 samples.

Results

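The 9 genes IL18, PI15, LGALS1A, MME, HAVCR1, GRAPL, ARHGAP25, BCAT1 and K123 were chosen because their signal was higher in stimulated than in unstimulated parental DT40 cells at 6 h. They are 9 of 13009 genes with a symbol of their own on the array, and 15 of the 38382 probe sets tested read them. HAVCR1 and MME have 3 probe sets each, IL18 and GRAPL 2 each and the other 5 genes 1 each. A gene is described by its brightest probe set unless another is named. All values are log2 signals, so a difference of 1 is a doubling.

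The 28 Affymetrix chicken arrays cover 4 lines. DT40 is a B-cell line from a chicken lymphoma and has IgM on its surface. B7.10 is DT40 with its own BTK gene knocked out, B41-13 is that knockout given human BTK, and B46-5 is the knockout given human BTK without kinase activity. Each line is a single line, so what else distinguishes it cannot be told apart from its BTK. Cells of every line were started in serum-free medium and then kept with fetal calf serum. They were taken unstimulated after 6 h (C6) or 24 h (C24), or after 2 h (S2) or 6 h (S6) with the stimulus labelled IgM (M4), which is known as an antibody against chicken IgM. DT40 and B7.10 were grown in 3 serum batches and have 3 arrays each at C6, C24 and S6, 1 per batch. S2, and every condition of B41-13 and B46-5, has 1 array, from serum batch 1. No unstimulated array at 2 h was analysed here, so S2 is set against C6. A difference of S2 from C6 therefore holds the stimulus together with the shorter time in culture. An array holds RNA pooled from 10 repeated experiments, and replicate error here is the spread between such pools.

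When the B-cell receptor is cross-linked, Src-family kinases and SYK are activated and BTK is recruited to phosphorylate phospholipase C gamma 2. The calcium and diacylglycerol signals that follow switch on NFAT, NF-kB and Ras pathways. Early transcription factors are induced first, and cytokines, surface receptors and signalling proteins follow.

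The set is mixed in where its proteins act. IL18 is a secreted cytokine, PI15 a secreted protein, LGALS1A a galectin that can leave the cell, and MME and HAVCR1 are surface proteins. GRAPL, ARHGAP25 and BCAT1 act inside the cell, so the set is not one of surface and secreted proteins throughout. K123 has no described role in the sources used here.

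The labels of 5 arrays disagree with their titles in batch, stimulation, line or time, and titles were used. They are the B7.10 S6 arrays of serum batches 2 and 3, the S6 array of B41-13, and the C24 and S6 arrays of B46-5. Each of the 28 arrays correlated best with an array of its own line over the 1000 most variable probe sets. This bears on the line only, not on batch, stimulation or time. The B7.10 S6 array of batch 2, the B41-13 S6 array and both disputed B46-5 arrays were each nearest to a C6 array. The B7.10 S6 array of batch 3 was nearest to another S6 array. BTK, read by a chicken probe set, stood at 9.91 ± 0.35 in DT40 (SD, n = 10 arrays), 4.99 ± 0.18 in B7.10 (SD, n = 10), 5.84 ± 0.16 in B41-13 (SD, n = 4) and 5.25 ± 0.10 in B46-5 (SD, n = 4). Of 12 B-cell markers 10 were measured, with a median level of 9.58, while the medians of 5 lists of other cell types lay between 3.50 and 4.53. The summed level of 14 myeloid markers was 68.6 to 71.3 in DT40 at C6 and 69.7 at S6. That of 11 T-cell markers was 54.9 to 55.5 and 54.4 to 55.1. Fewer cells of a type and less RNA per cell cannot be told apart in these samples. Precision is limited by how few arrays a group has.

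**Figure D1:**
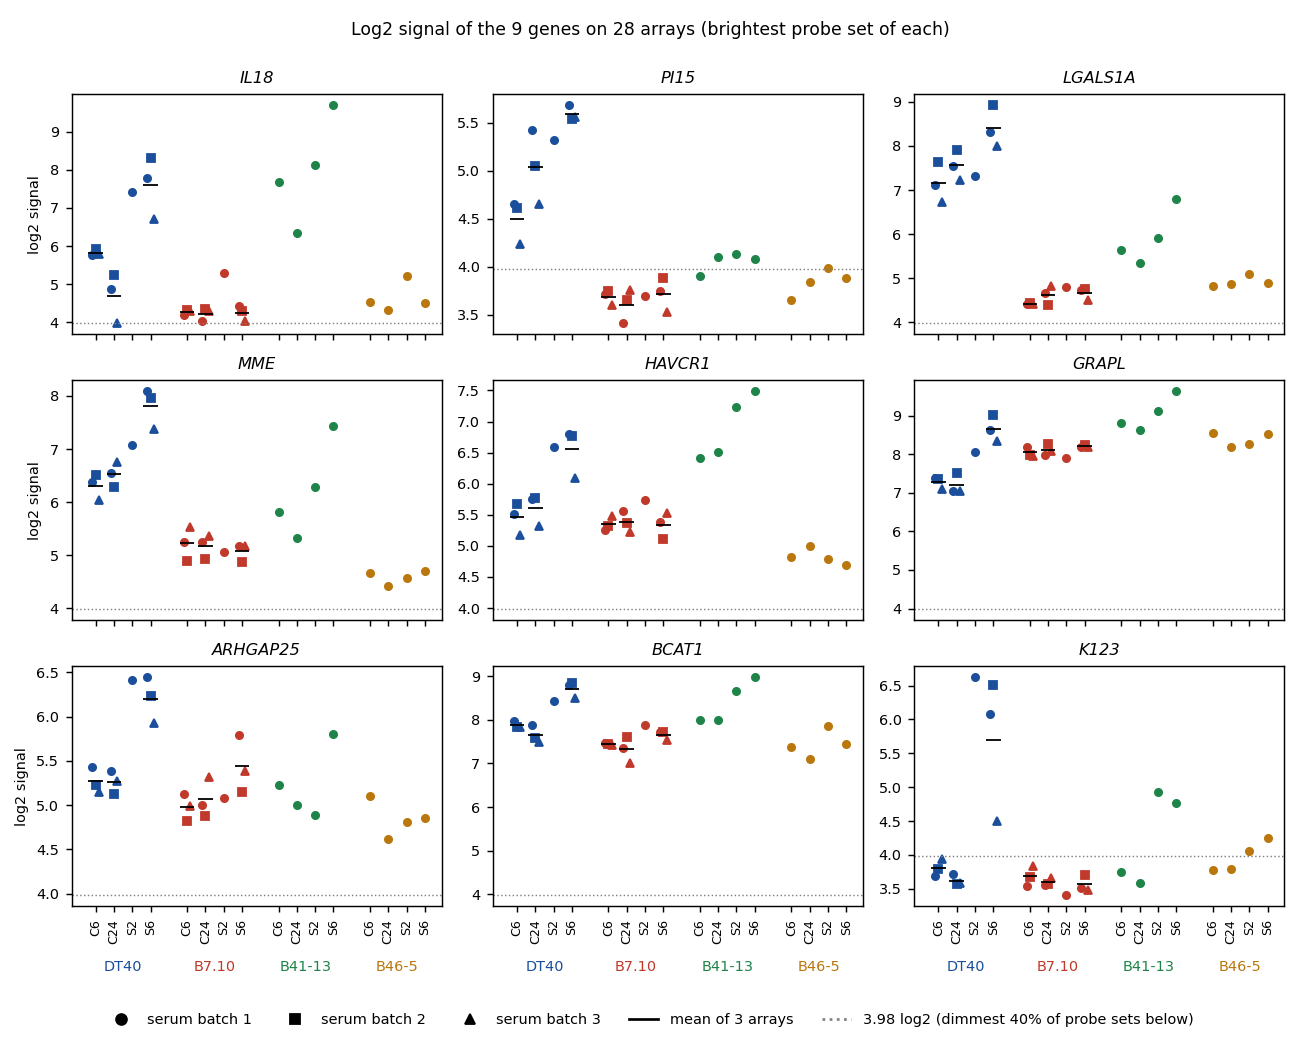
Log2 signal of the 9 genes on all 28 arrays, grouped on the horizontal axis by line and condition (C6 and C24 unstimulated, S2 and S6 stimulated). Point shapes are serum batches, bars are means of 3 arrays, and the dotted line at 3.98 log2 marks the level below which the dimmest 40% of probe sets lie. DT40 at S6 lies above DT40 at C6 for every gene, and in B7.10 no gene was called at S6.

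The secreted proteins in DT40 come first. IL18 is a cytokine of the interleukin-1 family that is made as a precursor and promotes interferon gamma production. Its level at C6 was 5.76, 5.92 and 5.80 in serum batches 1, 2 and 3, and at S6 it was 7.79, 8.31 and 6.70. All 3 stimulated arrays lay above all 3 unstimulated ones, the array of batch 3 by the least, and the fitted difference was 1.77 ± 0.30 (SE, n = 3 arrays per group). PI15, a peptidase inhibitor of the cysteine-rich secretory protein family, was at 4.65, 4.61 and 4.24 at C6 and at 5.68, 5.54 and 5.56 at S6. Its difference of 1.09 ± 0.16 came with stimulated levels that spread less than the unstimulated ones. LGALS1A, a lectin that binds beta-galactosides, was at 7.11, 7.64 and 6.72 at C6 and at 8.31, 8.93 and 8.01 at S6. The batches differed in level but little in their differences, which were 1.20, 1.29 and 1.28.

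Next are the surface proteins. MME, the zinc peptidase known in human B-cell development as CD10, was at 6.38, 6.50 and 6.05 at C6 and at 8.09, 7.95 and 7.37 at S6. The fitted difference was 1.50 ± 0.19 (SE, n = 3 arrays per group), again with the lowest stimulated level in batch 3. HAVCR1, also called TIM-1, is a phosphatidylserine receptor of activated lymphocytes in mammals. It was at 5.51, 5.68 and 5.18 at C6 and at 6.80, 6.77 and 6.10 at S6, a difference of 1.10 ± 0.18.

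The intracellular proteins and K123 showed the same order. GRAPL, an adaptor of the GRB2 family, was at 7.37, 7.35 and 7.096 at C6 and at 8.62, 9.01 and 8.34 at S6, a difference of 1.38 ± 0.15 (SE, n = 3 arrays per group). ARHGAP25, which in human blood cells switches off the GTPase RAC, was at 5.43, 5.23 and 5.15 and then at 6.45, 6.24 and 5.93. BCAT1, the cytosolic aminotransferase of branched-chain amino acids, was at 7.98, 7.84 and 7.82 and then at 8.80, 8.84 and 8.49. Their fitted differences were 0.93 ± 0.16 and 0.83 ± 0.13, the smallest of the set. K123 was at 3.69, 3.79 and 3.95 at C6, under 3.98, the level below which the dimmest 40% of probe sets lie. At S6 it was at 6.09, 6.51 and 4.50, so batches 1 and 2 differed from C6 by 2.40 and 2.73 and batch 3 by 0.56. The fitted 1.89 ± 0.30 therefore starts near background.

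These DT40 differences chose the genes, so they carry no test here. For scale, 0.0443% of all probe sets were called in this comparison (limma, Benjamini-Hochberg adjusted p under 0.05), and 8.49% had all 3 S6 arrays above all 3 C6 arrays. The median over the 9 genes was 1.26 and over all probe sets -0.0008. By size of the DT40 difference the brightest probe sets ranked between 3 and 37 of 38382, with K123 at 3, IL18 at 4 and BCAT1 at 37.

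The label of a late response was then set against the 2 h array. In serum batch 1 of DT40, K123 stood at 6.63 at S2, above its 6.09 at S6. ARHGAP25 was at 6.42 at S2 and 6.45 at S6, so its 2 h difference from C6 was 97.4% of that at 6 h. For HAVCR1 that share was 83.7% (levels 6.59 and 6.80) and for IL18 81.7% (7.41 and 7.79). These 4 genes were thus near or past their 6 h level at 2 h in this batch.

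PI15, BCAT1 and GRAPL had covered 64.5%, 55.1% and 54.4% of the 6 h difference by 2 h, and MME 40.6%. LGALS1A was the latest, with 7.31 at S2 against 7.11 at C6 and 8.31 at S6, or 17.0%. In all, 7 of 9 genes differed from C6 by more than 0.5 at S2, where 3.18% of all probe sets did, and 9 of 9 at S6, where 0.917% did. The 6 h difference, the shares of it and the C6 array are among the values that chose the genes, so these DT40 figures are a description. Each rests on a pair of arrays, and at S2 there is no replicate.

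B41-13, whose arrays the choice of genes did not use, gave another order. K123 was again higher at 2 h than at 6 h, by 1.18 and 1.02 over C6, and HAVCR1 had covered 75.9% of its 6 h difference by 2 h and BCAT1 67.4%. IL18 had covered 22.6%, below LGALS1A at 23.8%, with MME at 28.3% and GRAPL at 37.0%. ARHGAP25 was lower at S2 than at C6, by -0.33, and PI15 differed by 0.22 or less at both times. On their brightest probe sets K123 and HAVCR1 were thus early in both lines. LGALS1A and MME were nearer to C6 at 2 h in both, and IL18 and ARHGAP25 differed between the lines. Each of these readings rests on 1 pair of arrays per line and time.

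**Figure D2:**
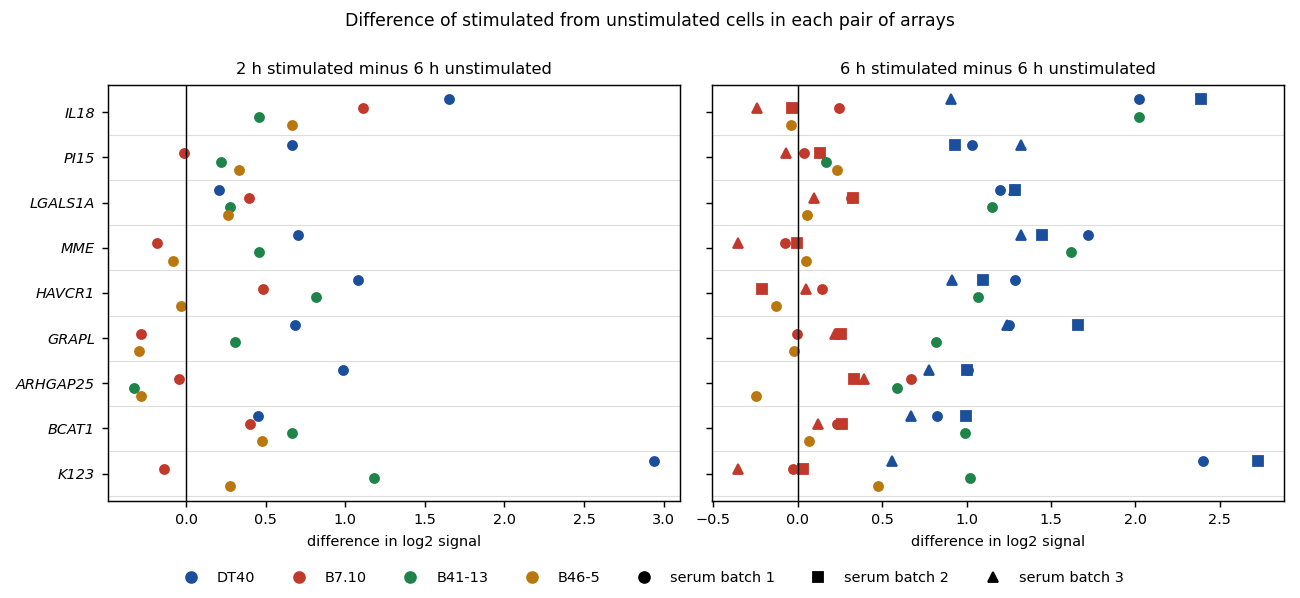
Difference in log2 signal between stimulated and 6 h unstimulated arrays of the same line and serum batch, at 2 h (left) and 6 h (right). Each point is a pair of arrays, coloured by line and shaped by serum batch. At 6 h all DT40 points lie above 0.5, B41-13 lies near DT40 for most genes, and B7.10 and B46-5 lie mostly near 0, with ARHGAP25 of B7.10 at 0.67 in serum batch 1.

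Without BTK limma called 0 of 9 members at 6 h in B7.10 (1 of 9, ARHGAP25, at an unadjusted p under 0.05). In this comparison 0% of all probe sets were called, with 6419 at an unadjusted p under 0.05. With the serum batch as a replicate block 616 probe sets were called, and without the C6 array of batch 1 there were 74, but still 0 of the 9 members. The median over the 9 genes was 0.03. IL18 in B7.10 was at 4.18, 4.33 and 4.28 at C6 and at 4.42, 4.30 and 4.04 at S6, and the groups overlapped. The fitted difference was -0.01 ± 0.30 (SE, n = 3 arrays per group; limma, adjusted p = 0.992). MME was at 5.25, 4.88 and 5.53 and then at 5.18, 4.88 and 5.17, a difference of -0.15 ± 0.19 (limma, adjusted p = 0.754). Its S6 array was no higher than the C6 array in any batch. HAVCR1, K123, GRAPL and PI15 differed by -0.01, -0.12, 0.16 and 0.03, with adjusted p from 0.639 to 0.990 (limma), and their groups overlapped too.

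The largest B7.10 difference was that of ARHGAP25, from 5.12, 4.82 and 4.99 at C6 to 5.79, 5.15 and 5.39 at S6. That is 0.46 ± 0.16 (limma, adjusted p = 0.165), and the S6 arrays lay above the C6 arrays without overlap. The value rests on few arrays, being 0.29 without the S6 array of batch 1 (limma, adjusted p = 0.566). It was 0.815 without the 2 S6 arrays of disputed label, which leaves only the S6 array of batch 1. Over 13 alternatives ARHGAP25 was never called (limma, adjusted p from 0.0738 to 0.566). The same absence of overlap held for LGALS1A, which differed by 0.25 ± 0.22 (limma, adjusted p = 0.610), and for BCAT1, which differed by 0.20 ± 0.13 (limma, adjusted p = 0.463). So 3 of 9 genes did not overlap upward, where 10.5% of all probe sets did not. The 95% intervals of the B7.10 differences reached up to 0.80 for ARHGAP25, 0.71 for LGALS1A and 0.49 for BCAT1. For IL18 the interval ran from -0.64 to 0.62.

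In serum batch 1 B7.10 and B46-5 could be pooled as the lines without an active kinase, with their spread as error. At S6 limma called 0 of 9 members, with 0 of 9 brightest probe sets at an unadjusted p under 0.05, where 0% of all probe sets were called and 4366 were at an unadjusted p under 0.05. At S2 it called 1 of 9, where 3.62% of all probe sets were called, 2.1% as higher. That gene was BCAT1, with a fitted difference of 0.47 ± 0.11 from C6 (SE, 12 arrays in the fit; limma, adjusted p = 0.0293). Its levels went from 7.48 to 7.88 in B7.10 and from 7.38 to 7.86 in B46-5. Without the 24 h arrays the difference rests on these levels alone, and at 0.44 it was not called (limma, adjusted p = 0.0965).

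IL18 was likewise higher at S2 than at C6 in these lines, a difference in which stimulus and time in culture cannot be told apart. It was at 4.18 at C6, 5.29 at S2 and 4.42 at S6 in B7.10, and at 4.54, 5.21 and 4.50 in B46-5. Its S2 array was the highest of each line. The fitted 2 h difference was 0.70 ± 0.20 (limma, adjusted p = 0.0786). That fit includes the 24 h arrays, and IL18 in B41-13 went from 7.68 at C6 to 6.34 at C24. Without the 24 h arrays the 2 h difference rests on B7.10 and B46-5 alone and was 0.89 (limma, adjusted p = 0.0116). This choice leaves fewer arrays to set the spread. The other IL18 probe set differed by 0.07 ± 0.15 (limma, adjusted p = 0.873), at levels between 3.34 and 3.67 that lie near background.

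B41-13 addresses whether human BTK restores the 6 h difference. In its single pair of arrays, 8 of 9 genes were more than 0.5 higher at S6 than at C6, where 2.39% of all probe sets were. In B46-5 that count was 0 of 9, where 1.04% were, and in B7.10 it was 1 of 9 (ARHGAP25), where 2.57% were. At S2 the counts were 3 of 9 in B41-13 (background 3.25%), 1 of 9 in B7.10 (3.41%) and 1 of 9 in B46-5 (2.61%). IL18 was the gene in both of the last. IL18 went from 7.68 to 9.71 in B41-13, the highest level on any array. MME went from 5.82 to 7.44, LGALS1A from 5.64 to 6.79, HAVCR1 from 6.42 to 7.49, K123 from 3.74 to 4.77, BCAT1 from 7.99 to 8.98, GRAPL from 8.82 to 9.64 and ARHGAP25 from 5.22 to 5.81. The sizes were near those of DT40 in the same batch for IL18 (2.02 in both lines), MME (1.62 and 1.72), LGALS1A (1.15 and 1.20) and BCAT1 (0.99 and 0.82). K123 differed by 1.02 against 2.40 and ARHGAP25 by 0.59 against 1.01.

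PI15 was the exception, at 3.91 at C6 and 4.08 at S6 in B41-13. Its difference of 0.17 lay below that of B46-5 (0.23), while DT40 in this batch differed by 1.03. PI15 in all lines but DT40 stayed between 3.41 and 4.13, close to the 3.98 mark.

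The stimulated level of B41-13 was tested on the 12 arrays of these lines in serum batch 1, against the level that its unstimulated C6 and C24 arrays and the responses of B7.10 and B46-5 give. The 24 h arrays are thus part of the baseline. At 6 h limma called 2 of 9 members, IL18 and MME, where 0.0391% of all probe sets were called, 0.0313% as higher. At an unadjusted p under 0.05 there were 7 of 9 members, and 2672 of all 38382 probe sets. IL18 in B41-13 stood 2.50 ± 0.32 above that level (SE, 12 arrays; limma, adjusted p = 0.00696), and its other probe set 2.38 ± 0.23 above it (limma, adjusted p = 0.00157). Since IL18 was lower at C24 than at C6 in B41-13, by -1.34, this exceeds its difference of 2.02 from C6, and over C6 alone the excess was 1.92. MME stood 1.82 ± 0.20 above (limma, adjusted p = 0.00272), or 1.63 over C6 alone. LGALS1A (1.17 ± 0.19) and HAVCR1 (1.14 ± 0.19) fell short, with adjusted p = 0.0508 and 0.0562 (limma). GRAPL differed by 0.79 ± 0.16, BCAT1 by 0.74 ± 0.18 and K123 by 0.89 ± 0.21, with adjusted p from 0.151 to 0.255 (limma). ARHGAP25 at 0.34 ± 0.25 and PI15 at -0.09 ± 0.20 had intervals that included 0.

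These tests have 4 residual degrees of freedom and no repeat of a pool, and the S6 array of B41-13 has a source name that gives another line and time. Without the 24 h arrays neither gene was called (limma, adjusted p = 0.0942 for both), but neither was any other, with 0 calls over all 38382 probe sets. Without the 2 B46-5 arrays of disputed label IL18 was not called (limma, adjusted p = 0.114), and as the mean of its 3 probe sets MME was not (0.98; limma, adjusted p = 0.0916). Over 7 alternatives the IL18 difference stayed between 1.92 and 2.51 (limma, adjusted p from 0.00704 to 0.114), and that of MME between 0.98 and 1.91 (limma, adjusted p from 0.00032 to 0.0942).

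At 2 h the same test called 1 of 9 members on the brightest probe sets, where 0.591% of all probe sets were called, 0.435% as higher. K123 in B41-13 stood 1.20 ± 0.21 above the level given by the model (SE, 12 arrays; limma, adjusted p = 0.0155), with 3.74 at C6, 4.93 at S2 and 4.77 at S6. In B7.10 K123 was at 3.54, 3.40 and 3.52, and in B46-5 at 3.78, 4.05 and 4.26. Without the 24 h arrays the difference was 1.12 (limma, adjusted p = 0.198). MME at 0.78 ± 0.20, HAVCR1 at 0.67 ± 0.19 and GRAPL at 0.55 ± 0.16 did not pass (limma, adjusted p from 0.108 to 0.217).

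HAVCR1 held a second pattern on another of its 3 probe sets. In DT40 that probe set was at 3.69 at C6, 5.09 at S2 and 3.80 at S6 in serum batch 1, and no other DT40 array exceeded 3.85. In B41-13 it was at 3.998, 5.08 and 4.06. In B7.10 and B46-5 the S2 arrays stood at 3.65 and 3.44, no higher than at C6. The extra 2 h response of B41-13 was 1.27 ± 0.17 (SE, 12 arrays; limma, adjusted p = 0.00183). The S2 arrays of the lines with active BTK thus stood apart on this probe set, whereas the brightest one was still higher at S6. The remaining one went from 3.21 to 3.95 to 4.93 in DT40 and from 4.50 to 4.49 to 5.86 in B41-13. In B41-13 that remaining probe set was thus no higher at S2 than at C6. The transcripts that each of these probe sets reads are not annotated in the tables used.

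**Figure D3:**
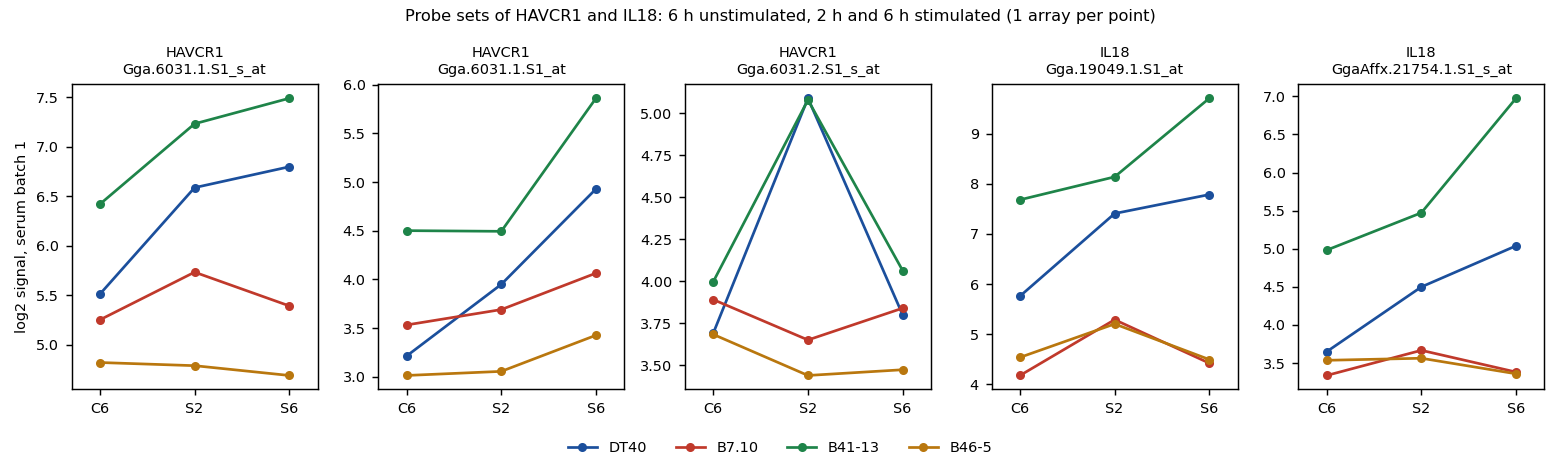
Log2 signal of the 3 HAVCR1 and 2 IL18 probe sets in serum batch 1 at C6, S2 and S6, with 1 array per point and a line per cell line. The third HAVCR1 panel peaks near 5.1 at S2 in DT40 and B41-13 alone, and the first IL18 panel shows B7.10 and B46-5 higher at S2 than at C6 and S6.

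The remaining probe sets were less uniform. In DT40 at 6 h the other IL18 probe set differed by 1.05 ± 0.23 (SE, n = 3 arrays per group), those of MME by 0.56 ± 0.13 and 0.77 ± 0.15, and the middle one of HAVCR1 by 1.27 ± 0.28. The dimmer GRAPL probe set differed by -0.17 ± 0.15, although its levels of 6.63 to 6.84 at S6 were well above background. GRAPL therefore rests on 1 of its 2 probe sets.

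The unstimulated levels split the genes between the lines in different ways. At C24, which the choice of genes did not use, limma called 4 of 9 members between B7.10 and DT40, 3 lower and 1 higher, where 4.44% of all probe sets were called (3.17% lower, 1.27% higher). LGALS1A was at 4.67, 4.40 and 4.82 in B7.10 and at 7.54, 7.90 and 7.23 in DT40, a difference of -2.93 ± 0.22 (SE, n = 3 arrays per group; limma, adjusted p = 9.08e-08). PI15 was at 3.41, 3.65 and 3.75 against 5.42, 5.04 and 4.65, a difference of -1.43 ± 0.16 (limma, adjusted p = 1.13e-05) that starts near background in B7.10. MME was at 5.24, 4.93 and 5.36 against 6.55, 6.29 and 6.76, a difference of -1.36 ± 0.19 (limma, adjusted p = 0.000177). For none of these 3 genes did the arrays of the lines overlap. How many of all probe sets had no such overlap was not counted.

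GRAPL went the other way, at 7.98, 8.27 and 8.09 in B7.10 and 7.05, 7.51 and 7.05 in DT40. It was 0.91 ± 0.15 higher in B7.10 (limma, adjusted p = 0.000885), where its unstimulated level came near the stimulated level of DT40 (8.34 to 9.01). On the dimmer GRAPL probe set the lines differed by -0.17 ± 0.15 (limma, adjusted p = 0.635). IL18, HAVCR1, BCAT1, ARHGAP25 and K123 differed by -0.47 to -0.03 and did not pass (limma, adjusted p from 0.230 to 0.983). The 95% interval of IL18 ran from -1.10 to 0.16.

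Human BTK was accompanied by higher unstimulated levels of 6 of 9 genes in B41-13 than in B7.10, where 7.07% of all probe sets were called, 2.87% as higher. IL18 stood 2.82 ± 0.20 higher (SE, 12 arrays; limma, adjusted p = 3.22e-07), with 7.68 at C6 and 6.34 at C24 against 4.18 and 4.03. HAVCR1 was higher by 0.98 ± 0.12, LGALS1A by 0.94 ± 0.12, GRAPL by 0.65 ± 0.10, BCAT1 by 0.59 ± 0.11 and PI15 by 0.45 ± 0.12 (limma, adjusted p from 0.000101 to 0.0365). MME at 0.38 ± 0.12 (limma, adjusted p = 0.0843), K123 and ARHGAP25 did not pass. Without the 24 h arrays GRAPL, BCAT1 and PI15 no longer passed (limma, adjusted p = 0.0531, 0.151 and 0.503).

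The levels of B41-13 did not all lie between B7.10 and DT40. In serum batch 1 IL18, HAVCR1 and GRAPL of B41-13 at C6 (7.68, 6.42 and 8.82) lay above DT40 (5.76, 5.51 and 7.37). LGALS1A at 5.64 and PI15 at 3.91 lay below it (7.11 and 4.65). BCAT1 at 7.99 and 7.98 was level between these lines. No test of B41-13 against DT40 was made.

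B46-5 differed from B7.10 in 5 of 9 members over 4 conditions, 3 lower and 2 higher, where 8.57% of all probe sets were called (4.85% lower, 3.72% higher). HAVCR1 was lower by -0.66 ± 0.09 (SE, 12 arrays; limma, adjusted p = 0.000156), MME by -0.59 ± 0.09 and ARHGAP25 by -0.40 ± 0.12 (limma, adjusted p = 0.000512 and 0.0441). K123 was higher by 0.46 ± 0.10 and GRAPL by 0.31 ± 0.08 (limma, adjusted p = 0.0062 and 0.0181). Without the 2 B46-5 arrays of disputed label ARHGAP25, K123 and GRAPL no longer passed (limma, adjusted p = 0.579, 0.115 and 0.0857), and ARHGAP25 differed by -0.15.

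**Figure D4:**
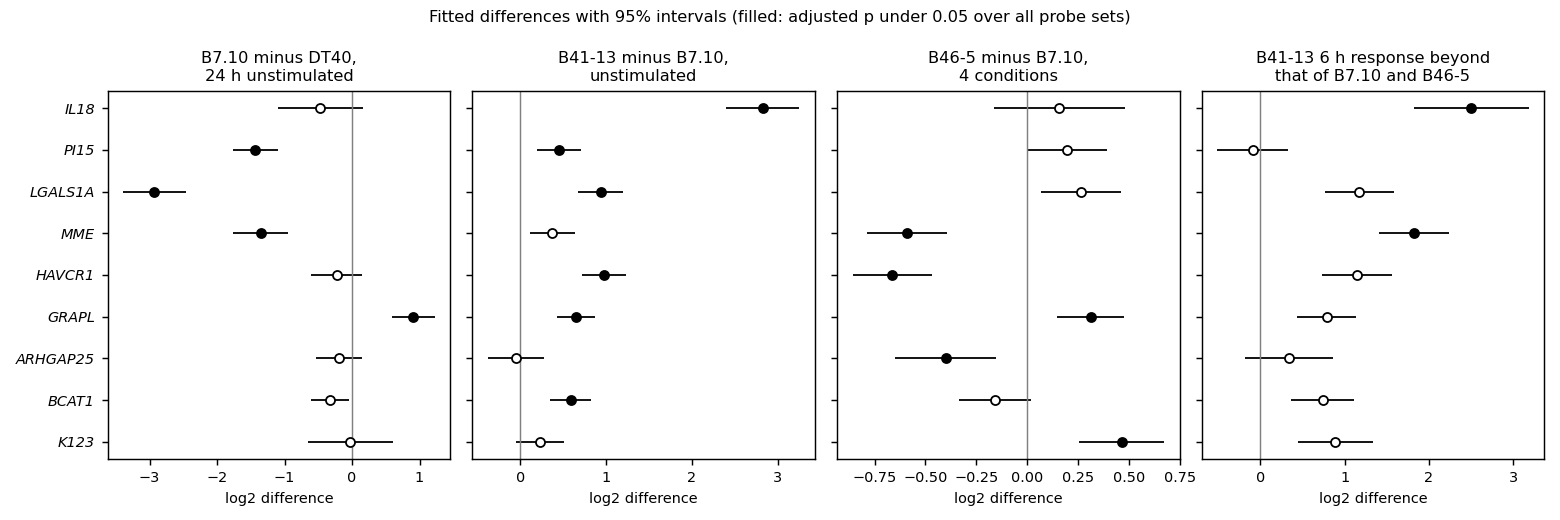
Fitted differences (log2, horizontal axis) of the 9 genes with 95% intervals, from left to right for B7.10 minus DT40 at 24 h, B41-13 minus B7.10 unstimulated, B46-5 minus B7.10 over 4 conditions, and the 6 h response of B41-13 beyond that of B7.10 and B46-5. Filled points passed limma at an adjusted p under 0.05. GRAPL is the member that is higher in B7.10 than in DT40, and IL18 and MME are the filled points of the last panel.

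The time in culture moved some members without any stimulus. In DT40 IL18 was lower at C24 than at C6 in every batch, by -0.89, -0.68 and -1.82, and it was also lower in B41-13, by -1.34. In B7.10 its C24 levels of 4.03, 4.35 and 4.30 overlapped those at C6. PI15 and LGALS1A in DT40 were higher at C24 in every batch, by 0.77, 0.44 and 0.41 and by 0.43, 0.26 and 0.51. The DT40 values share their C6 arrays with the choice of genes and were not tested. In B7.10 limma called 0 of 9 members between C24 and C6 (0 of 9 at an unadjusted p under 0.05), where 0.232% of all probe sets were called.

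Serum batches were compared next. Over the 18 arrays of DT40 and B7.10, limma's F test called 0 of 9 members between batches, where 0.776% of all probe sets were called. At an unadjusted p under 0.05 there were 5 of 9 members, and 6501 of all 38382 probe sets. The batch means of IL18 spanned 0.56 (limma, adjusted p = 0.195) and those of LGALS1A 0.39 (limma, adjusted p = 0.236). In DT40 alone 2 genes passed, LGALS1A with a span of 0.84 (limma, adjusted p = 0.00395) and HAVCR1 with 0.54 (limma, adjusted p = 0.0462). That fit called 376 of all 38382 probe sets. Batch 3 was the lowest for LGALS1A in each DT40 condition. DT40 in batch 3 also had the smallest 6 h difference for 7 of 9 genes, the exceptions being PI15 (1.32 in batch 3) and LGALS1A.

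Lists of relatives of the members and of other activation genes gave 1 call in DT40. These lists were written from general knowledge but with earlier results of these data known, so calls in them are a description. Among 16 measured genes of B-cell activation, mostly surface and secreted, 1 passed. It was the membrane-associated BASP1, which rose by 2.28 ± 0.20 (SE, n = 3 arrays per group; limma, adjusted p = 4.28e-05). At an unadjusted p under 0.05 there were 6 of the 16, and 2726 of all 38382 probe sets. In 8 other lists limma called 0 genes. They hold 10 genes of interleukin-18 signalling and the inflammasome, 8 peptidases, 14 adaptors, 8 relatives of PI15, 5 galectins, 11 genes of branched-chain amino acid use, 13 early transcription factors and the TIM gene TIMD4. At an unadjusted p under 0.05 there were 2, 2, 1, 0, 1, 0, 0 and 0 of them. LGALS8, another galectin, differed by 0.67 ± 0.13 (limma, adjusted p = 0.0957) and the adaptor SHC1 by 0.56 ± 0.17 (limma, adjusted p = 0.517). MYD88, the adaptor of the interleukin-18 receptor, differed by 0.47 ± 0.17 (limma, adjusted p = 0.610). The list medians lay between -0.26 (TIMD4 alone) and 0.13.

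In B41-13 the extra 6 h response was called for 1 of the 16 activation genes, the surface marker CD83 at 1.65 ± 0.24 (SE, 12 arrays; limma, adjusted p = 0.0183), and for 0 genes of these 8 lists (0 to 3 genes of each list at an unadjusted p under 0.05). Over all probe sets 0.0391% were called in this test, and 2672 of 38382 had an unadjusted p under 0.05. Without the 24 h arrays the CD83 call was lost, as was every other call over all probe sets. The CD83 call also rests on the S6 array whose source name gives another line and time. At 2 h it was called for 7 of 13 early transcription factors and regulators, all higher, where 0.591% of all probe sets were called, 0.435% as higher. The list median was 1.01 against -0.06 over all probe sets. The called factors included the NF-kB inhibitor TNFAIP3 at 3.17 ± 0.21, the zinc finger factor EGR1 at 2.23 ± 0.22 and the nuclear receptor NR4A3 at 2.13 ± 0.18 (limma, adjusted p from 1.59e-06 to 0.000114). CD83 rose by 4.13 ± 0.24 more at that time (limma, adjusted p = 6.36e-07). IL1RAP, an accessory receptor of the interleukin-1 family, was called in the same test at 0.92 ± 0.17 (limma, adjusted p = 0.021). Of the 14 adaptors 1 was called higher and 1 lower. Fewer probe sets were called at 2 h without the 24 h arrays, and which of these genes would remain was not examined.

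With each line's mean removed, the 9 genes varied together over the 28 arrays pooled. No correlation was computed inside a single line. The 36 pairs of members had Pearson correlations from 0.50 to 0.88 (median 0.74), the lowest for IL18 with PI15. The 6 genes most like their mean pattern, of 13000 compared, were BASP1 (r = 0.89), LGALS8 (0.86), the kinase MATK (0.86), ASPG (0.82), RAB39A (0.82) and ABCC13 (0.80). Their DT40 differences at 6 h were 2.28, 0.67, 0.93, 1.70, 0.30 and 0.50. The arrays share lines and batches, RAB39A has a mean level of 3.03 near background, and the DT40 arrays that chose the members are among the 28, so these correlations are a description.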

How the data were processed

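The deposited values are log2 signals per probe set, made by the authors with RMA per the submitters' processing notes (version not given in the sources used here). RMA corrects background, equalises array distributions and summarises probes, which compresses low levels and makes levels relative to the array. Array medians were 4.37 to 4.50 log2. The tests leave out 153 of 38535 probe sets, which are controls or reporters. Symbols came from the platform table (27168 probe sets with 1 symbol, 177 with several), and all 9 members matched the reference table by gene ID. A gene with several probe sets is represented by the brightest. No sequences were used here.

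DT40 and B7.10 at C6, C24 and S6 (18 arrays, 6 groups of 3, 12 residual degrees of freedom) were fitted as group means with limma 3.58.1 in R 4.3.3. The 12 arrays of serum batch 1 without DT40 were fitted as line plus condition plus terms for B41-13 at S2 and S6 (4 residual degrees of freedom), so their error is the departure of the other arrays from that model. Adjusted p-values are Benjamini-Hochberg over all 38382 probe sets, with calls under 0.05. Both fits were tested on simulated data.

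The members and gene lists were chosen with earlier results of these data known. Named were the members, BTK, the list genes with the smallest p and the 6 genes most like the members. From the lists only genes of the DT40 and B41-13 responses are given, not all that this rule allows. The result of 1 further list is not reported here. The serum batch is the replicate number, so the numbers pair the arrays. After each group's mean was removed, the median correlation of 2 arrays was 0.122 within a batch (45 pairs) and -0.06 across batches (90 pairs). Alternatives were the batch as a block, leaving out dim probe sets, cyclic loess, other moderation, other sets of arrays and the mean of all probe sets.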

Additional observations from a re-analysis of the deposited data

Results flagged for a closer look

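Differences between lines in the same contrast stood out for 4 genes. At 6 h B41-13 stood above the level given by its C6 and C24 arrays and the responses of B7.10 and B46-5. The excess was 2.50 and 2.38 on the IL18 probe sets and 1.82 for MME (limma, adjusted p = 0.00696, 0.00157 and 0.00272). Over C6 alone it was 1.92 on the brightest IL18 probe set and 1.63 for MME, and neither was called (limma, adjusted p = 0.0942 for both). That fit had 0 calls over all 38382 probe sets. At 2 h the excess was 1.20 for K123 and 1.27 on the third HAVCR1 probe set (limma, adjusted p = 0.0155 and 0.00183). In B41-13 both stood near the 3.98 mark at C6. Without the 24 h arrays the excess was 1.12 for K123, which was not called. That HAVCR1 probe set was not refitted by itself under the alternatives. In MME every DT40 pair of arrays was higher at S6 (by 1.72, 1.45 and 1.32) and every B7.10 pair lower (by -0.08, -0.01 and -0.35). The mean difference between the lines was -1.64, the DT40 pairs helped to choose the gene, and the difference was not tested.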

How the results depend on the processing

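Of 119 recomputed main results, 107 stayed within 1.5 times the count, or 1 SD of the value, given in the report. Some of the 107 could not have moved, since the block, other moderation and arrays of other groups do not enter a DT40 difference. With the replicate block the counts of called members did not change (0 of 9 at 6 h and at 24 h in B7.10, 4 of 9 at C24). The median 6 h difference in DT40 was 1.26, as it must be with batches balanced over the groups. Over all probe sets the block moved the B7.10 count at 6 h from 0 to 616. That median was 0.94 as the mean of all probe sets, and 1.04 to 1.46 with 1 array left out. With 1 array left out the 24 h median in DT40 was -0.07 to 0.07, the B7.10 counts were 0 and the C24 count was 4 to 5, BCAT1 being added when the C24 array of B7.10 from batch 2 is absent (-0.46; limma, adjusted p = 0.048). HAVCR1 at 24 h in DT40 changed sign as the mean of its probe sets (-0.0402 against 0.15). In DT40 alone the serum batch count was 2, where 376 of all 38382 probe sets were called. The extra 6 h response of B41-13 had 4 calls with trend and robust moderation (LGALS1A and HAVCR1 added; limma, adjusted p = 0.0322 and 0.0338), 1 with the mean of all probe sets, 1 without the 2 disputed B46-5 arrays and 0 without the 24 h arrays, a choice that leaves 9 arrays. Over everything tested, these fits called 37 of 38382, 3 of 24223, 5 of 38382 and 0 of 38382 in that order. Without the 24 h arrays the extra 2 h response also had 0 member calls, where 44 of 38382 probe sets were called. B41-13 minus B7.10 then had 3, where 887 were called. PI15 was lost from that last comparison with cyclic loess and with DT40 in the fit (limma, adjusted p = 0.0682 and 0.122). B46-5 minus B7.10 had 3 calls with the mean of all probe sets (2006 of 24223 tested) and 2 without the disputed arrays (1738 of 38382). The last fit without 3 disputed arrays, which also gave 2, was added after the data were seen. Of 837 recomputed member values with a test, 45 uncalled ones changed sign. For single changes not explained by fewer arrays the cause was not tested.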
